A study of Mus musculus with 8 samples.

Results

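The genes described here carry out glucose uptake, glycolysis, lactate production and export, and the entry of pyruvate into mitochondria. They were chosen by gene symbol from a list of 37 genes covering glucose transporters, hexokinases, the glycolytic enzymes, the PFKFB enzymes that set the fructose 2,6-bisphosphate level, lactate genes, the pyruvate dehydrogenase (PDH) complex with its kinases and phosphatase, and 2 glycogen enzymes. Of these, 33 were matched to a probe that the platform annotation assigns to 1 gene, out of 19938 genes tested in all. Gpi1, Eno1 and Pfkfb1 had no listed probe and were not analysed here. Gapdh was represented only by 25 probes that also name other genes, and these differed between MI and sham by -0.05 to 0.07 in KO hearts and by -0.15 to -0.12 in WT hearts on the log2 scale, with no test.

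Expression was measured in total RNA of mouse hearts on the Affymetrix Mouse Gene ST array. The 4 groups, each of 2 arrays, were hearts lacking MAFbx with infarction (KO MI), wild-type hearts with infarction (WT MI), hearts lacking MAFbx after a sham operation (KO sham) and wild-type hearts after a sham operation (WT sham). MAFbx, also called atrogin-1, is a muscle ubiquitin ligase encoded by Fbxo32. Infarction (MI) was made by tying off the left coronary artery permanently, and RNA was taken after 1 day. The labels give no strain, age, sex or construct for the KO, no time for the sham operation, and no region of the heart, and they do not tell if each array is a separate animal. The p-values therefore rest on how these samples scatter, which could be technical scatter alone.

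Fbxo32 had log2 levels of 5.14 and 5.46 in KO MI and 8.35 and 8.21 in WT MI, and 4.68 and 5.17 in KO sham against 8.76 and 8.79 in WT sham, so every array matched its genotype label. Array medians lay between 5.004 and 5.253, and the first principal component, with 73.92% of the variance, separated MI from sham. On the second component (8.56%) KO sham 1 and WT MI 2 lay at -21.22 and -20.2, with KO MI 1 and KO sham 2 on the other side at 16.16 and 15.29. KO sham 1 was the lowest of the 4 sham arrays in 22 of the 33 genes, against 33.8% of all genes and 58.5% of the 1966 genes with a mean level above 9. Relative to WT sham, the mean log2 level of 10 neutrophil markers was 2.51 and 2.77 in KO MI, 3.34 and 4.01 in WT MI, and -0.08 to 0.06 in the KO sham arrays. That of 10 monocyte and macrophage markers was 2.26 and 2.19 in KO MI and 2.63 and 2.14 in WT MI. The 11 cardiomyocyte markers stood at -0.04 and 0.03 in KO MI and at -0.25 and -0.24 in WT MI. Without Myh7, a choice made after seeing the data, the other 10 stood at -0.25 and -0.27 in KO MI, -0.32 and -0.35 in WT MI and -0.16 and -0.03 in KO sham. Myh7 had levels of 11.20 and 12.08 in KO MI, 9.64 and 9.96 in WT MI, 10.84 and 11.04 in KO sham, and 9.06 and 9.24 in WT sham. The defining genes of this cell type were high in every array, with Myh6 at 12.97 to 13.12 in the MI arrays and 13.10 to 13.48 in the sham arrays. In a sample of whole tissue, fewer cells of a type and less RNA per cell cannot be told apart.

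Glucose enters cells through facilitative transporters, is phosphorylated by a hexokinase and is split to pyruvate, which is either reduced to lactate and exported with a proton by monocarboxylate transporters, or oxidised by the PDH complex in mitochondria. The adult heart burns mostly fatty acids and shifts toward glucose when oxygen is short, and many genes of glycolysis are known targets of the hypoxia-inducible factor HIF-1, which binds the letters ACGTG or GCGTG. Several steps are served by separate isoforms in striated muscle and in other cells, among them leukocytes, which rely heavily on glycolysis.

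The promoters shown here belong to some of the genes that rose in both genotypes, with Pgam2, which fell, for comparison. Pgam2 was chosen as the 1 gene without the letters among the 5 fallen genes that have a promoter. They are the 250 bases before the annotated start of transcription, from RefSeq on mouse assembly GRCm38.p6, written 5′ to 3′ along the gene's strand, and capitals mark ACGTG or GCGTG on either strand. They lie at chr4:119108495-119108744 on the plus strand for Slc2a1, chr11:120948817-120949066 on the plus strand for Slc16a3, chr13:6648772-6649021 on the minus strand for Pfkp, chr2:11502091-11502340 on the minus strand for Pfkfb3, chrX:106186850-106187099 on the plus strand for Pgk1 and chr11:5803797-5804046 on the minus strand for Pgam2.
Slc2a1: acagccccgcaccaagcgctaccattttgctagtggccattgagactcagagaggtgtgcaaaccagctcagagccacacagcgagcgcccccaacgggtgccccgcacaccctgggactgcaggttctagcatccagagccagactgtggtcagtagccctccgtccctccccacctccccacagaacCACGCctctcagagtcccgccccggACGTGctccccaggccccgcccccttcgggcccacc
Slc16a3: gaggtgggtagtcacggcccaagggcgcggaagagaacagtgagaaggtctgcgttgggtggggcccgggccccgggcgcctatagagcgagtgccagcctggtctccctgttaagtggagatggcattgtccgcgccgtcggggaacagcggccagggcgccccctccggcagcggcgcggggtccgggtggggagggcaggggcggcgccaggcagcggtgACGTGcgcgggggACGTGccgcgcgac
Pfkp: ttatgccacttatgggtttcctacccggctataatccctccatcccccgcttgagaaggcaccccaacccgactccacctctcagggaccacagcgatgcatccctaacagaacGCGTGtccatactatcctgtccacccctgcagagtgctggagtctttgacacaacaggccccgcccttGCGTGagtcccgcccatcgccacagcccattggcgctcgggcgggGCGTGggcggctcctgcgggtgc
Pfkfb3: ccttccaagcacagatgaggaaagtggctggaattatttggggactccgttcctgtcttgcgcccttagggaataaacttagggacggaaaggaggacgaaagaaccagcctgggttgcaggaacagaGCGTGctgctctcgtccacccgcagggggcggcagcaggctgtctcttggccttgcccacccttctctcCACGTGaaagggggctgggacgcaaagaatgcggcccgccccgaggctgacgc
Pgk1: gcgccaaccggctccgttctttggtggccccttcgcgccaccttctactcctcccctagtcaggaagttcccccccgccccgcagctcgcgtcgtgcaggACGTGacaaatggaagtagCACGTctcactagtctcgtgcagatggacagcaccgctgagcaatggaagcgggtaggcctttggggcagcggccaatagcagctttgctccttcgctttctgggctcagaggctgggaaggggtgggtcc
Pgam2: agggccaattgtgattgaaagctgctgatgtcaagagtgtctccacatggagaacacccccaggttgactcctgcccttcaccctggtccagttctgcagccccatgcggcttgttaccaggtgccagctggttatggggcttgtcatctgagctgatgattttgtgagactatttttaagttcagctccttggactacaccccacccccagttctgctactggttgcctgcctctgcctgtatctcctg
The marked letters begin 61 and 36 bases before the start in Slc2a1, 27 and 14 bases before it in Slc16a3, 150 and 131 bases before it in Pgk1, 122 and 53 bases before it in Pfkfb3, and 136, 68 and 23 bases before it in Pfkp. The second place in Pfkfb3 is CACGTG, an E-box, which holds ACGTG on both strands. Pfkfb3 has a second listed promoter, not shown, with ACGTG 60 bases before its start. Pgam2 held none of these letters in this window. Pfkfb2, the gene with the largest fall in both genotypes, is not shown. In 1 of its listed promoters such letters begin 72, 44 and 22 bases before the start.

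Of the 33 genes, 30 had a promoter in the table, and 27 of those held ACGTG or GCGTG in at least 1 promoter. The share of all genes with at least 1 such promoter is not given here, so the counts by gene have no background. Counted by promoter, 35 of 44 (79.5%) held either, against 38.6% of the 32851 promoters in the table. ACGTG was in 47.7% against 16.6%, GCGTG in 52.3% against 28.2%, and CACGTG in 13.6% against 6.02%. The promoters of the 33 genes had a median GC content of 60.2% against 52.4% for all promoters, and the part of base composition in these shares was not tested. The letters were in 11 of the 11 genes with a promoter that rose in both genotypes, in 4 of 5 that fell in both and in 7 of 9 that passed the test in neither. A match describes the letters only and shows neither binding nor a cause.

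After infarction, 23 of the 33 genes changed in KO hearts (16 rose and 7 fell) and 20 changed in WT hearts (13 rose and 7 fell) at a limma adjusted p under 0.05. Among all genes tested, 20.8% changed in KO hearts (10.5% up and 10.3% down) and 28.1% changed in WT hearts (12.3% up and 15.8% down). The median log2 fold change of the 33 genes was 0.43 in KO hearts and 0.11 in WT hearts, beside 0.01 and 0.04 over all genes. Of the genes that changed by at least 2-fold, 5 rose and 1 fell in KO hearts, against backgrounds of 3.39% and 1.76%, and 7 rose and 2 fell in WT hearts, against 3.88% and 4.5%. Of the 24 genes called in either genotype, 12 rose and 7 fell in both. Among all genes 6436 were called in either genotype, 4142 in KO hearts and 5609 in WT hearts. The share of all genes called in both is not given here. Hk2, Ldha, Pfkl and Pgam1 passed the test for a rise in KO hearts alone and Pdk4 in WT hearts alone. For none of them did the difference between the genotypes pass the test. KO sham 1 was the lowest of the 4 sham arrays in Hk2 (9.47), Ldha (12.09), Pfkl (8.71) and Pgam1 (9.21), and in 22 of the 33 genes. Its part in the higher median of KO hearts was not tested.

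**Figure D1:**
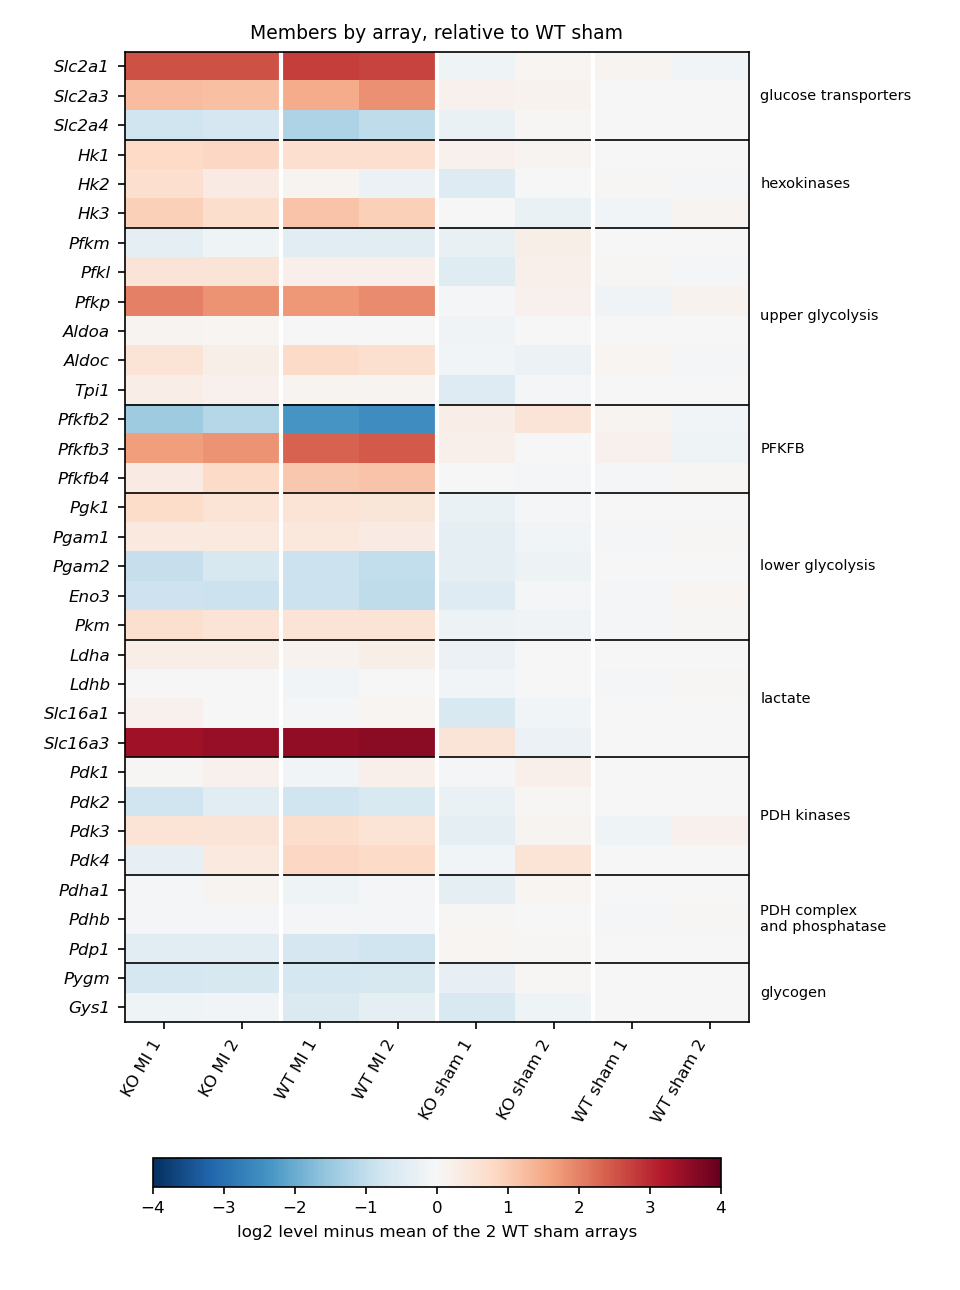
Log2 level of the 33 genes in each of the 8 arrays minus the mean of the 2 WT sham arrays, with genes in rows grouped by role and arrays in columns from KO MI to WT sham. Slc16a3, Slc2a1, Pfkp and Pfkfb3 are red and Pfkfb2 is blue in all 4 MI arrays, and Pfkfb2 is paler in KO MI than in WT MI.

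The glucose transporters moved in opposite directions. Slc2a1 encodes GLUT1, the transporter found in most cells, and Slc2a3 encodes GLUT3, a high-affinity transporter of neurons and leukocytes. Slc2a4 encodes GLUT4, which insulin and contraction bring to the surface of muscle cells. Slc2a1 had log2 levels of 11.11 and 11.12 in KO MI against 8.39 and 8.65 in KO sham, and 11.32 and 11.26 in WT MI against 8.68 and 8.44 in WT sham. All 4 MI arrays were far above all 4 sham arrays, a rise of 6.01-fold in KO hearts (log2 2.59 ± 0.14 SE, adjusted p = 4.59e-06) and 6.63-fold in WT hearts (2.73 ± 0.14 SE, adjusted p = 1.72e-06). Slc2a3 had 6.25 and 6.20 in KO MI against 5.17 and 5.14 in KO sham, and 6.49 and 6.84 in WT MI against 5.0 and 5.02 in WT sham. It rose 2.1-fold in KO hearts (adjusted p = 0.000626) and 3.14-fold in WT hearts (adjusted p = 3.21e-05), with no overlap between MI and sham.

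Slc2a4 went down instead, at 9.74 and 9.88 in KO MI against 10.29 and 10.60 in KO sham, and at 9.33 and 9.54 in WT MI against 10.56 and 10.54 in WT sham. It fell 1.55-fold in KO hearts (log2 -0.63 ± 0.14 SE, adjusted p = 0.0123) and 2.16-fold in WT hearts (-1.11 ± 0.14 SE, adjusted p = 0.000382). The fall in KO hearts did not pass the test without KO sham 2 (adjusted p = 0.0566) or without KO MI 1 (adjusted p = 0.0935). The MI effects on Slc2a1 and Slc2a4 thus had opposite signs in both genotypes. Neutrophil and macrophage markers rose in the same MI arrays as Slc2a3 and Slc2a1. The counts were 7 and 8 of 10 in KO hearts and 9 and 8 of 10 in WT hearts. The share of all genes that rose was 10.5% in KO hearts and 12.3% in WT hearts. The part of the markers in the rises of Slc2a3 and Slc2a1 was not tested.

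**Figure D2:**
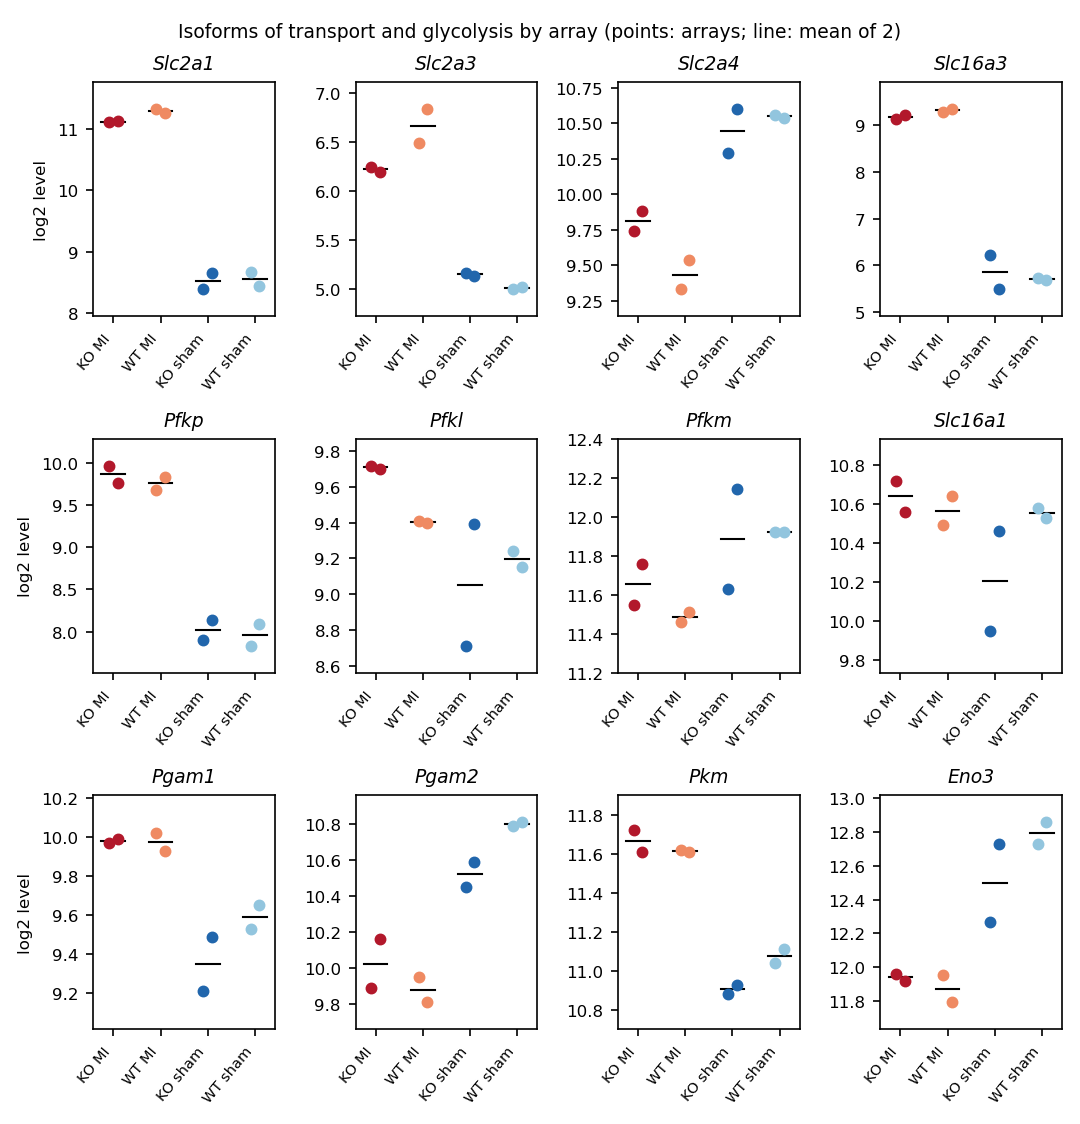
Log2 level of 12 transport and glycolysis genes in each array (points) with the mean of the 2 arrays of a group (line), 1 panel a gene with its own axis, groups from KO MI on the left to WT sham on the right. Slc2a1, Slc2a3, Slc16a3, Pfkp and Pkm are higher in the MI arrays, and Slc2a4, Pgam2 and Eno3 are lower.

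Hexokinases trap glucose in the cell. Hk3, an isoform abundant in leukocytes, had 5.57 and 5.32 in KO MI against 4.60 and 4.34 in KO sham, and 5.75 and 5.56 in WT MI against 4.51 and 4.73 in WT sham. All MI arrays were above all sham arrays, and it rose 1.97-fold in KO hearts (adjusted p = 0.00192) and 2.05-fold in WT hearts (adjusted p = 0.000859). Hk2, the insulin-sensitive isoform of adult muscle, had 10.66 and 10.31 in KO MI against 9.47 and 9.97 in KO sham, and 10.12 and 9.76 in WT MI against 10.03 and 9.96 in WT sham. Both KO MI arrays were above all sham arrays and above both WT MI arrays, a rise of 1.70-fold in KO hearts (log2 0.77 ± 0.20 SE, adjusted p = 0.023), with a log2 difference of -0.06 ± 0.20 SE in WT hearts. The rise did not pass the test without KO sham 1 (adjusted p = 0.121) or without KO MI 1 (adjusted p = 0.168).

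Hk1, the isoform found in most tissues, is uncertain because its probe with the highest mean carries 1 accession that also annotates probes of Rpl17, a ribosomal protein gene. On that probe Hk1 rose 1.58-fold in KO hearts (adjusted p = 0.00305) and 1.6-fold in WT hearts (adjusted p = 0.00175). On a second Hk1 probe, with 8 accessions, the levels were 10.14 and 10.19 in KO MI, 10.03 and 10.21 in WT MI, 9.38 and 9.59 in KO sham, and 9.65 and 9.71 in WT sham. There the gene rose 1.61-fold in KO hearts (adjusted p = 0.00502) and 1.35-fold in WT hearts (adjusted p = 0.0315), so both probes gave a rise in both genotypes. In sham hearts the probes went opposite ways, with means of 11.34 in KO and 11.20 in WT on the first and 9.48 and 9.68 on the second. A further 16 probes name Hk1 with other genes, and differed between MI and sham by 0.73 to 0.90 in KO hearts and 0.66 to 1.05 in WT hearts. Which transcript the first probe reads was not tested. The use of the second probe was chosen after seeing the data.

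Phosphofructokinase makes the committed step of glycolysis and has a muscle (Pfkm), a liver (Pfkl) and a platelet (Pfkp) isoform. Pfkp had 9.97 and 9.76 in KO MI against 7.90 and 8.14 in KO sham, and 9.68 and 9.84 in WT MI against 7.83 and 8.09 in WT sham. The MI and sham arrays were well apart, and Pfkp rose 3.6-fold in KO hearts (adjusted p = 4.42e-05) and 3.48-fold in WT hearts (adjusted p = 3.25e-05). Pfkl rose 1.58-fold in KO hearts (adjusted p = 0.0366) and differed by a log2 value of 0.21 ± 0.19 SE in WT hearts. Its rise was not called without any 1 of 7 arrays, all but KO sham 2, with adjusted p-values of up to 0.148. Pfkm, the isoform of muscle, differed by -0.23 ± 0.17 SE in KO hearts and -0.44 ± 0.17 SE in WT hearts, and passed the test in neither (adjusted p = 0.407 and 0.0832). Without KO sham 1 it did pass in KO hearts (adjusted p = 0.0485), and without either KO sham array it passed in WT hearts (adjusted p = 0.0218).

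Aldolase splits the sugar and triose phosphate isomerase interconverts the products. Aldoc, the brain isoform of aldolase, rose 1.48-fold in KO hearts (adjusted p = 0.0173, lost without KO sham 2 at 0.0669 or KO MI 1 at 0.141) and 1.63-fold in WT hearts (adjusted p = 0.00429). Its levels were 4.59 to 5.10 in the MI arrays and 4.10 to 4.42 in the sham arrays, and its mean over all arrays was under the 33rd percentile of genes (4.586). Detection above background was not tested here, so these are folds of the deposited values only. The sham levels of Hk3, at 4.34 to 4.73, lay around the same percentile. Aldoa, the muscle isoform, differed by 0.17 ± 0.12 SE in KO hearts and 0.00 ± 0.12 SE in WT hearts. Tpi1 differed by 0.50 ± 0.16 SE in KO hearts (adjusted p = 0.0552, and 0.0064 without KO sham 2) and 0.11 ± 0.16 SE in WT hearts.

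**Figure D3:**
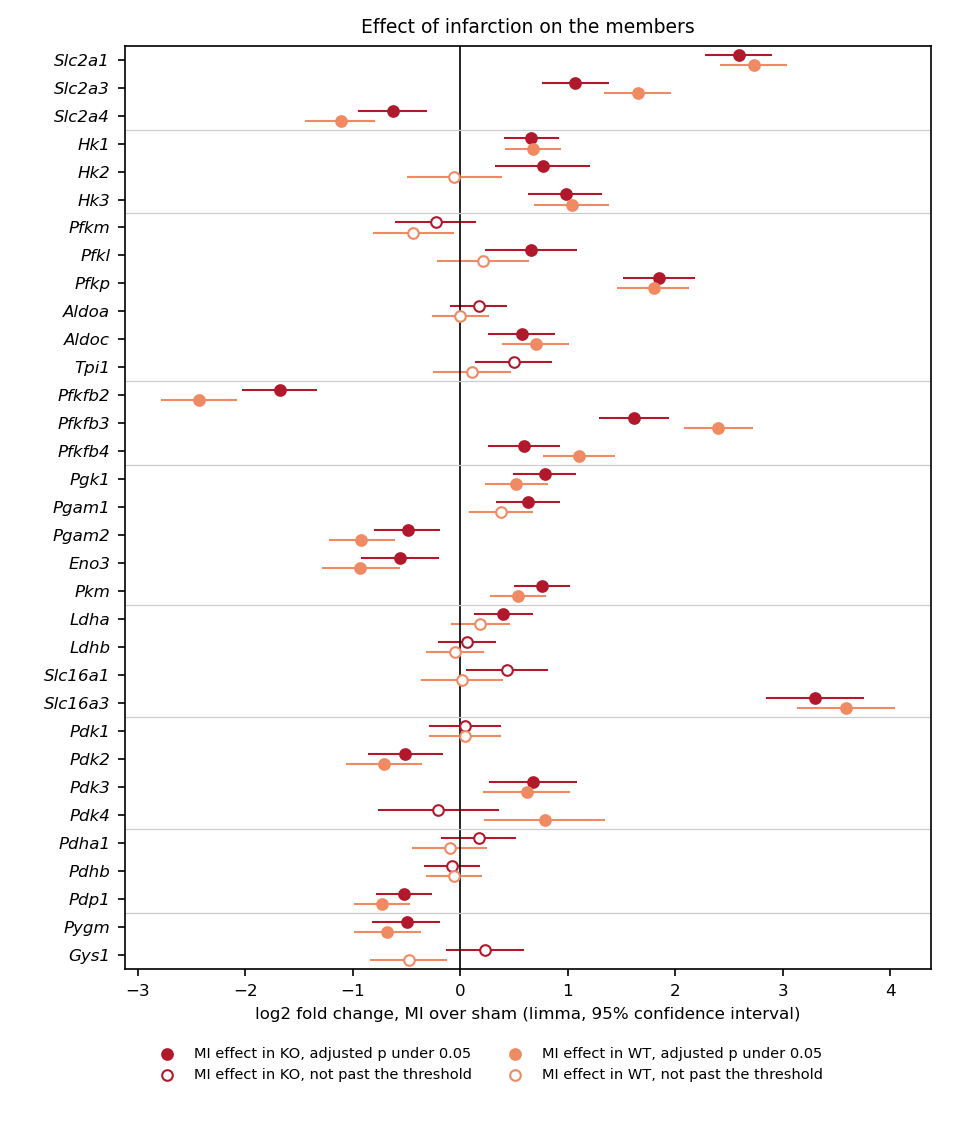
Log2 fold change of MI over sham (horizontal axis) for the 33 genes in KO hearts (red) and WT hearts (orange), with 95% confidence intervals from limma. Filled points passed an adjusted p of 0.05, and Slc16a3, Slc2a1, Pfkfb3 and Pfkfb2 lie farthest from 0 in WT hearts.

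PFKFB enzymes make and break fructose 2,6-bisphosphate, the strongest activator of phosphofructokinase. Pfkfb2 encodes the heart isoform, which insulin and adrenaline signals activate, and Pfkfb3 an inducible isoform with very high kinase activity. Pfkfb2 had 8.08 and 8.37 in KO MI against 9.77 and 10.03 in KO sham, and 7.14 and 7.02 in WT MI against 9.63 and 9.39 in WT sham. All MI arrays were below all sham arrays, with WT MI lowest, and Pfkfb2 fell 3.2-fold in KO hearts (log2 -1.68 ± 0.16 SE, adjusted p = 0.0001) and 5.4-fold in WT hearts (-2.43 ± 0.16 SE, adjusted p = 6.74e-06).

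Pfkfb3 went the other way, at 7.08 and 7.21 in KO MI against 5.61 and 5.44 in KO sham, and at 7.76 and 7.86 in WT MI against 5.57 and 5.25 in WT sham. It rose 3.07-fold in KO hearts (log2 1.62 ± 0.14 SE, adjusted p = 8.08e-05) and 5.28-fold in WT hearts (2.40 ± 0.14 SE, adjusted p = 4.62e-06), and its WT MI arrays were the highest. Pfkfb4, an isoform first described in testis and inducible by hypoxia, had 5.29 and 5.71 in KO MI against 4.95 and 4.86 in KO sham, and 6.02 and 6.09 in WT MI against 4.91 and 4.99 in WT sham. It rose 1.51-fold in KO hearts (adjusted p = 0.0204) and 2.15-fold in WT hearts (adjusted p = 0.000518). The Pfkfb4 call in KO hearts was lost without KO sham 2 (adjusted p = 0.074) or KO MI 2 (adjusted p = 0.166).

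**Figure D4:**
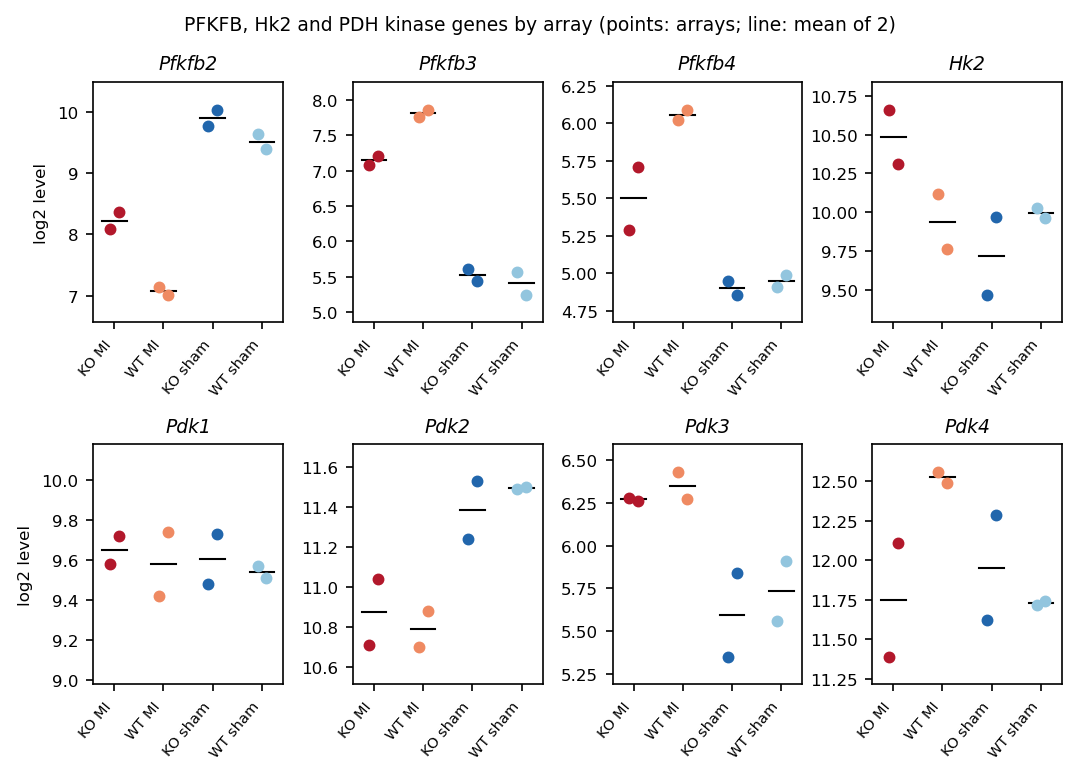
Log2 level of the 3 measured PFKFB genes, Hk2 and the 4 PDH kinases in each array (points) with the mean of 2 arrays (line), 1 panel a gene with its own axis, groups from KO MI on the left to WT sham on the right. For Pfkfb2, Pfkfb3 and Pfkfb4 the KO MI arrays lie between the WT MI arrays and the sham arrays, and Pdk4 is spread within both KO groups.

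In the second part of glycolysis, Pgk1 and Pkm rose and the muscle isoforms Pgam2 and Eno3 fell in both genotypes. Pgk1, which makes the first ATP of the pathway, rose 1.73-fold in KO hearts (adjusted p = 0.00254) and 1.44-fold in WT hearts (adjusted p = 0.0147), with levels of 11.74 to 11.98 in the MI arrays and 10.98 to 11.25 in the sham arrays. Pkm, which encodes the pyruvate kinase of muscle and of most other tissues, rose 1.69-fold in KO hearts (adjusted p = 0.00164) and 1.45-fold in WT hearts (adjusted p = 0.00683). Its splice forms were not separated in these values. Pgam1, the non-muscle phosphoglycerate mutase, rose 1.55-fold in KO hearts (adjusted p = 0.00892, and 0.0539 and 0.0607 without KO MI 1 and KO MI 2), and differed by 0.38 ± 0.13 SE in WT hearts (adjusted p = 0.0586). That WT difference passed the test in 9 of 19 alternatives, including the removal of either KO sham array (adjusted p = 0.0286). The WT call of Pgk1 was lost on removing WT sham 1, WT sham 2, WT MI 1 or WT MI 2 (adjusted p = 0.0841, 0.0847, 0.0604 and 0.0502), and that of Pkm without WT sham 1 (0.0682).

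Pgam2, the muscle phosphoglycerate mutase, had 9.89 and 10.16 in KO MI against 10.45 and 10.59 in KO sham, and 9.95 and 9.81 in WT MI against 10.79 and 10.81 in WT sham. It fell 1.41-fold in KO hearts (adjusted p = 0.0292) and 1.89-fold in WT hearts (adjusted p = 0.000829). Eno3, the muscle enolase, had 11.96 and 11.92 in KO MI against 12.27 and 12.73 in KO sham, and 11.95 and 11.79 in WT MI against 12.73 and 12.86 in WT sham. It fell 1.47-fold in KO hearts (adjusted p = 0.0355) and 1.9-fold in WT hearts (adjusted p = 0.00211), with every MI array below every sham array. Both KO calls were lost without either WT sham array (0.056 for Pgam2 and 0.057 for Eno3), without KO sham 2 (0.103 and 0.151) or without KO MI 1 (0.207 and 0.126), and that of Eno3 also without KO MI 2 (0.161). Cardiomyocyte markers fell in 2 of 11 in KO hearts and 5 of 11 in WT hearts, in the same arrays as these muscle isoforms. The share of all genes that fell was 10.3% in KO hearts and 15.8% in WT hearts. The part of the markers in the falls of these isoforms was not tested. Pgk1 and Pgam1 have several probes and near-identical copies in the genome. The Pgk1 probes gave log2 differences of 0.79 to 0.80 in KO hearts and 0.52 to 0.56 in WT hearts. The Pgam1 probe used gave 0.63 in KO hearts and 0.38 in WT hearts. The other Pgam1 probes, with the same values as each other, gave 0.77 in KO hearts and 0.5 in WT hearts. With the mean of its probes Pgam1 passed the limma test in WT hearts (adjusted p = 0.0282), so its WT result depends on the probe rule.

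Slc16a3 encodes MCT4, a low-affinity exporter of lactate from glycolytic cells, and it had the highest MI effect of the 33 genes in both genotypes. Its levels were 9.12 and 9.20 in KO MI against 6.23 and 5.49 in KO sham, and 9.27 and 9.33 in WT MI against 5.73 and 5.70 in WT sham. KO sham 1 was the highest of the sham arrays, and all MI arrays were far above it. Slc16a3 rose 9.86-fold in KO hearts (log2 3.30 ± 0.20 SE, adjusted p = 9.36e-06) and 12-fold in WT hearts (3.59 ± 0.20 SE, adjusted p = 3.38e-06).

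The rest of the lactate genes moved little. Slc16a1, the lactate transporter MCT1 that the heart uses for uptake, differed by 0.43 ± 0.17 SE in KO hearts (adjusted p = 0.109, and 0.013 without KO sham 2) and 0.02 ± 0.17 SE in WT hearts. Ldha, the lactate dehydrogenase subunit of glycolytic tissue, had 12.59 and 12.59 in KO MI against 12.09 and 12.29 in KO sham, and rose 1.32-fold (adjusted p = 0.0453). It differed by 0.18 ± 0.12 SE in WT hearts. The KO call was lost in 13 of 20 alternatives, among them leaving out any 1 array other than KO sham 2 (adjusted p = 0.0528 to 0.173), median centring (0.0609), array weights (0.0697) and a fit of the KO groups alone (0.108). Ldhb, the heart subunit, differed by 0.06 ± 0.12 SE in KO hearts and -0.05 ± 0.12 SE in WT hearts, with 95% intervals of -0.21 to 0.33 and -0.32 to 0.22.

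PDH kinases phosphorylate and inactivate the PDH complex, and PDH phosphatase reverses this. Of the 4 kinases, Pdk2, a widespread isoform, fell 1.42-fold in KO hearts (adjusted p = 0.0442) and 1.63-fold in WT hearts (adjusted p = 0.00735). Pdk3 rose 1.6-fold in KO hearts (adjusted p = 0.0265) and 1.53-fold in WT hearts (adjusted p = 0.0307), with levels of 6.26 to 6.43 in the MI arrays and 5.35 to 5.91 in the sham arrays. Pdk1, known as a HIF-1 target, differed by 0.04 ± 0.15 SE in both KO and WT hearts.

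Pdk4, the isoform that fasting and fatty acids induce in muscle, had 11.39 and 12.11 in KO MI against 11.62 and 12.29 in KO sham, and 12.56 and 12.49 in WT MI against 11.72 and 11.74 in WT sham. The WT arrays were tight and apart, while the KO arrays of a group were far from each other and overlapped between MI and sham. Pdk4 rose 1.72-fold in WT hearts (log2 0.79 ± 0.25 SE, adjusted p = 0.0425) and differed by -0.21 ± 0.25 SE in KO hearts (adjusted p = 0.65). The WT call was lost without any 1 of the 4 WT arrays (adjusted p = 0.126 to 0.142). The Pdk2 call in KO hearts was lost without any 1 array other than KO sham 1 and KO MI 2 (0.0517 to 0.279). For Pdk3 it was lost without KO sham 1 (0.129), KO MI 1 (0.122) or KO MI 2 (0.114), and in WT hearts without WT sham 1 (0.219), WT MI 1 (0.128), WT MI 2 (0.069) or either KO MI array (0.0514).

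Pdha1 and Pdhb, the subunits of the first enzyme of the PDH complex, passed the test in neither genotype. They differed by 0.17 ± 0.16 SE and -0.08 ± 0.11 SE in KO hearts and by -0.10 ± 0.16 SE and -0.06 ± 0.11 SE in WT hearts. Among the other measured parts of the complex, named after their values were seen, Dld fell in WT hearts (log2 -0.61 ± 0.16 SE, adjusted p = 0.0161) and so did Pdhx (-0.52 ± 0.15 SE, adjusted p = 0.0258), while in KO hearts they differed by -0.15 ± 0.16 SE and -0.05 ± 0.15 SE. Dlat passed in neither genotype, at -0.10 in KO hearts and -0.20 in WT hearts. Pdp1, the phosphatase subunit that switches the complex on, had 9.61 and 9.60 in KO MI against 10.14 and 10.11 in KO sham, and 9.39 and 9.27 in WT MI against 10.04 and 10.08 in WT sham. It fell 1.44-fold in KO hearts (adjusted p = 0.0109, lost at 0.064 and 0.0682 without KO MI 1 and KO MI 2) and 1.66-fold in WT hearts (adjusted p = 0.00121).

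Of the 2 glycogen genes, Pygm, the muscle phosphorylase that releases glucose units from glycogen, fell 1.42-fold in KO hearts (adjusted p = 0.0299) and 1.6-fold in WT hearts (adjusted p = 0.00521). The KO call was lost without WT sham 1, WT sham 2, KO sham 2, KO MI 1 or KO MI 2 (adjusted p = 0.0562 to 0.135). Gys1, the muscle glycogen synthase, differed by 0.23 ± 0.16 SE in KO hearts and -0.48 ± 0.16 SE in WT hearts (adjusted p = 0.391 and 0.0521). The WT difference of Gys1 passed the test in 9 of 19 alternatives, among them leaving out either KO sham array (adjusted p = 0.0169), median centring (0.0381), array weights (0.0216) and a fit of the WT groups alone (0.0324).

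The KO and WT hearts were then compared with each other. In sham hearts 0 of the 33 genes differed by limma, beside 6 genes (0.0301%) of all genes. At an unadjusted p under 0.05 there were 2 of 33 (6.06%), Pfkfb2 at log2 0.39 and Gys1 at -0.39, beside 5.1% of all genes. In infarcted hearts 1 of the 33 differed, beside 14 genes (0.0702%) of all genes. At an unadjusted p under 0.05 there were 9 of 33 (27.3%) beside 11.7% of all genes, and the median log2 fold change of the 33 genes was 0.07 against 0.00 for all. The gene past the adjusted threshold was Pfkfb2, 2.22-fold higher in KO MI than in WT MI (log2 1.15 ± 0.16 SE, 95% interval 0.80 to 1.5, adjusted p = 0.0447). Averaged over sham and MI, Pfkfb2 was again the 1 gene of 33 past the threshold (log2 0.77, adjusted p = 0.05, just under the threshold before rounding), with a background of 0.1%, and its adjusted p was 0.0744 to 0.248 without any 1 array. Its adjusted p in MI was 0.0571 to 0.338 when any 1 of the 8 arrays was left out, and 0.113 when only the MI groups were fitted, so the call rests on all of them, although the log2 fold change stayed between 1.0 and 1.29.

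Among the genes with a lower unadjusted p in infarcted hearts, the levels of Pfkfb3, Pfkfb4, Slc2a3 and Pdk4 were lower in KO MI than in WT MI, with log2 differences of -0.67 (adjusted p = 0.155), -0.55 (adjusted p = 0.225), -0.44 (adjusted p = 0.282) and -0.77 (adjusted p = 0.292). Hk2 and Slc2a4 were higher, at 0.55 (adjusted p = 0.34) and 0.38 (adjusted p = 0.36). Pdp1, at 0.28, and Aldoc, at -0.31, were the rest of the 9 with an unadjusted p under 0.05. Apart from Pfkfb2 none of these passed the test, although in each of them the 2 groups of MI arrays did not overlap. Non-overlap was seen in 11 of the 33 genes upward and 7 downward, 33.3% and 21.2%, beside 24.2% and 20.2% of all genes.

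**Figure D5:**
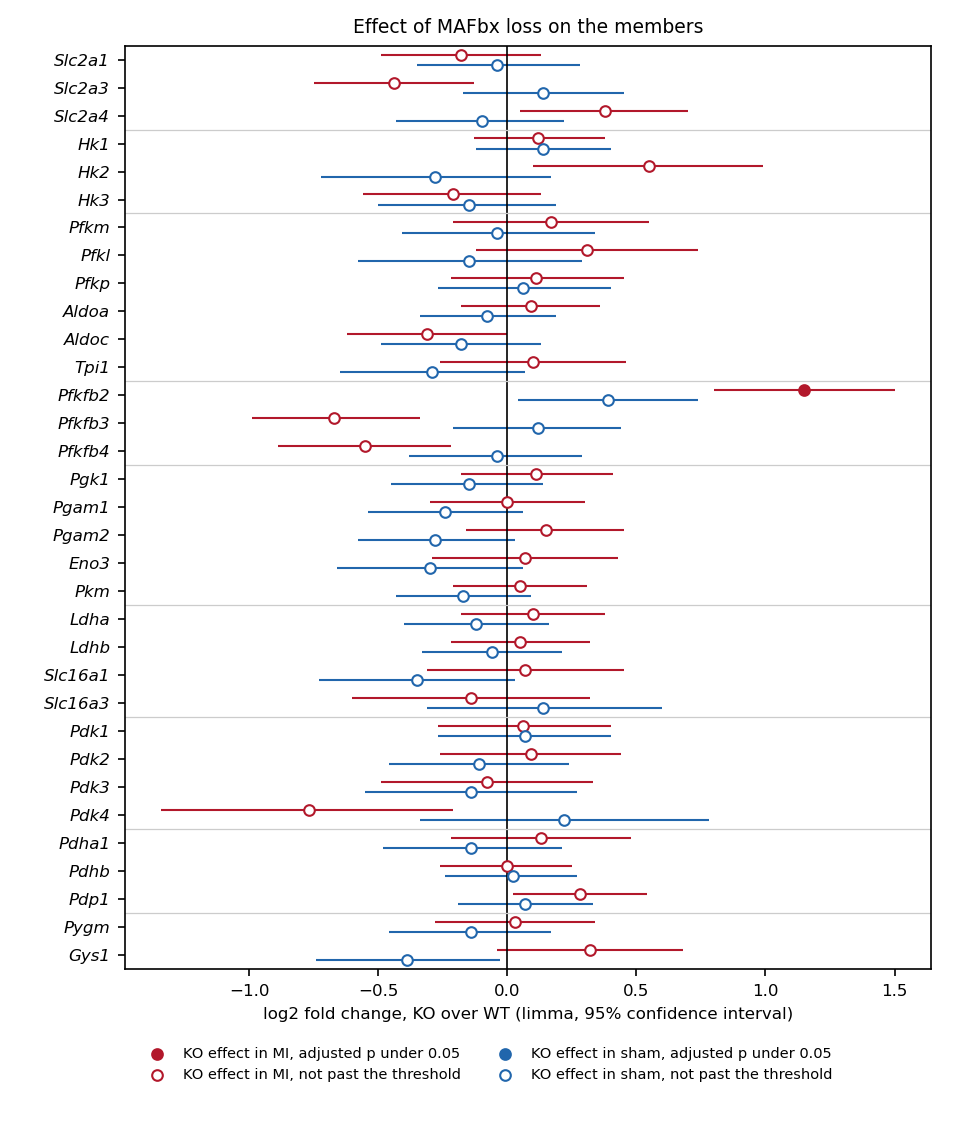
Log2 fold change of KO over WT (horizontal axis) for the 33 genes in MI hearts (red) and sham hearts (blue), with 95% confidence intervals from limma. The single filled point is Pfkfb2 in MI hearts, at 1.15.

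The difference of the MI effects, KO minus WT, passed the limma test for 0 of the 33 genes and 0 of all genes (0.0%), with 8 of 33 (24.2%) and 1637 of 19938 (8.21%) at an unadjusted p under 0.05. The lowest p among the 33 belonged to Pfkfb3 (log2 -0.78 ± 0.20 SE, adjusted p = 0.47) and Pfkfb2 (0.76 ± 0.22 SE, 95% interval 0.26 to 1.25, adjusted p = 0.489). Of the 24 genes that changed in either genotype, 16 (66.7%) had an MI effect closer to 0 in KO hearts, beside 70.8% of the 6436 such genes among all genes tested. The share among the 33 genes is thus near that of the array as a whole. The KO effect in MI uses the same MI arrays as the MI effects, so these comparisons are not independent. Neutrophil markers were lower in KO MI than in WT MI (median log2 difference -0.97 over 10 genes, 0 past the test, 0 of 10 also for the difference of the MI effects). Relative to WT sham, 8 fibroblast markers stood at -0.09 and -0.16 in KO MI, -0.53 and -0.65 in WT MI and -0.16 and 0.10 in KO sham. The 7 smooth muscle and pericyte markers stood at -1.03 and -1.02 in KO MI, -1.14 and -0.96 in WT MI, -0.84 and -0.68 in KO sham, and -0.28 and 0.28 in WT sham. The 5 atrial markers stood at -0.96 and -0.87 in KO MI and -0.89 and -0.91 in WT MI. They stood at -0.47 and -1.67 in KO sham and -0.62 and 0.62 in WT sham. The members of this list went opposite ways after MI. Nppa had 12.25 to 12.45 in the MI arrays, against 8.11 and 8.52 in KO sham and 10.19 and 11.06 in WT sham. Myl7 had 4.62 to 4.91 in the MI arrays, against 7.86 and 4.56 in KO sham and 6.09 and 8.8 in WT sham. Myl4 had 6.45 to 6.93 in the MI arrays, against 9.15 and 7.08 in KO sham and 8.26 and 10.58 in WT sham. The part of atrial tissue in the MI effects was not tested. The neutrophil and fibroblast lists thus differed between KO MI and WT MI with no overlap of arrays, and so did the cardiomyocyte list, with and without Myh7. The same held for the skeletal muscle list (-0.24 and -0.19 in KO MI, 0.16 and 0.19 in WT MI). In that list Acta1 had 8.76 and 9.36 in KO MI and 10.48 and 9.91 in WT MI. The other genes of the list lay between 3.57 and 6.29 in every array. The KO MI and WT MI arrays also did not overlap for 2 erythrocyte markers (0.07 and 0.17 in KO MI, 1.22 and 0.21 in WT MI). Of all single genes, 24.2% upward and 20.2% downward showed no overlap between these groups. The part of these lists in the genotype values was not tested.

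A further 95 measured genes of neighbouring pathways were examined, of 100 listed. After infarction 17 rose and 23 fell in KO hearts (median log2 -0.05), and 15 rose and 34 fell in WT hearts (median -0.20). Of all genes, 10.5% rose and 10.3% fell in KO hearts, and 12.3% rose and 15.8% fell in WT hearts. The rises of the 95 genes in WT hearts were thus not far above the share of all genes. Of the 95 genes 0 passed the test for either KO effect or for the difference. In the pentose phosphate pathway, which makes NADPH and ribose, 4 of 7 genes rose and 0 fell in both genotypes. They were Pgd (log2 1.5 in KO hearts and 1.17 in WT hearts), Taldo1 (1.10 in KO hearts and 0.84 in WT hearts), Tkt (0.68 in KO hearts and 0.81 in WT hearts) and Pgls (0.45 in KO hearts and 0.62 in WT hearts). In the hexosamine pathway, which feeds protein glycosylation, 4 of 7 rose in KO hearts and 2 of 7 in WT hearts. Among them Gfpt2, an isoform of its first enzyme, rose by 1.29 in KO hearts and 1.32 in WT hearts, whereas Oga, which removes the sugar from proteins, fell (-1.0 in KO hearts and -0.93 in WT hearts).

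Among 14 genes of pyruvate and lactate handling, Emb, a partner protein that carries lactate transporters to the cell surface, had the largest change. Its levels were 6.79 and 7.38 in KO MI against 3.41 and 4.02 in KO sham, and 7.76 and 7.64 in WT MI against 4.30 and 4.74 in WT sham, and it rose by log2 3.37 in KO hearts (adjusted p = 2.21e-05) and 3.18 in WT hearts (adjusted p = 2.09e-05). The levels in both KO sham arrays and in WT sham 1 lay under the 33rd percentile of genes (4.586). Detection above background was not tested. Slc16a7, the high-affinity transporter MCT2, fell (log2 -1.33 in KO hearts and -2.71 in WT hearts), with levels of 5.56 and 5.79 in KO MI, 5.39 and 4.84 in WT MI, 6.47 and 7.53 in KO sham, and 7.82 and 7.84 in WT sham. Pdp2, the other PDH phosphatase, fell (-0.77 in KO hearts and -1.66 in WT hearts). Gpt2, a mitochondrial enzyme that converts pyruvate to alanine, fell (-0.91 in KO hearts and -1.5 in WT hearts). In the glycogen list, 2 of 17 rose in each genotype, near the share of all genes, while 3 fell in KO hearts and 6 in WT hearts. Pygl, the liver phosphorylase, rose by 1.33 in KO hearts and 1.92 in WT hearts, against the fall of the muscle gene Pygm, and Phkg1, a subunit of the kinase that activates phosphorylase, fell (-1.05 in KO hearts and -1.65 in WT hearts). Slc2a12, which encodes the transporter GLUT12, fell (-1.25 in KO hearts and -2.17 in WT hearts), in the same direction as Slc2a4.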

How the data were processed

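Expression was measured in 8 arrays of mouse heart RNA, in 4 groups of 2 taken from the labels' genotype and condition. The deposited values are log2 expression values made by the authors with Affymetrix Expression Console and RMA, per the submitters' processing notes; the sources used here give neither versions nor a genome build. RMA as commonly run includes quantile normalization, which reduces a shift shared by most genes. The table held 35556 probes, of which 21789 name 1 gene in the platform annotation, 1621 name several and 12146 are unlisted. For the 999 genes with more than 1 probe, the probe with the highest mean over 8 arrays was used, with no filter on low values.

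limma 3.58.1 in R 4.3.3 fitted 4 group means to all 8 arrays (residual degrees of freedom 4, prior degrees of freedom 5.57). Tests were two-sided, with Benjamini-Hochberg adjustment over 19938 genes and a threshold of 0.05. Values after ± are limma standard errors of log2 fold changes. An exact permutation test of 2 against 2 arrays cannot give a p under 0.333, and having only 2 arrays a group limits the precision. Values in every array are given for genes with a called change of at least 2-fold after MI or a called KO effect, or where an isoform's role needs it. Of the neighbouring pathways, up to 4 rises and 4 falls with the lowest p were eligible for naming. The genes and lists were chosen with earlier results of these data known. The code was tested on simulated data. Promoter letters were counted with Python 3.11.15 in the RefSeq table. Alternatives changed the probe rule, low-value filter, scaling, prior, array weights, block, groups fitted and arrays included.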

Additional observations from a re-analysis of the deposited data

How the results depend on the processing

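The direction of every called gene among the 33 held under all alternatives run, with 0 reversals. After MI, 10 of 23 calls in KO hearts and 16 of 20 in WT hearts held under every alternative that gave a value (Aldoc, among the 16, has none without the genes of lowest mean level); in KO hearts these were Slc2a1, Slc2a3, Hk1, Hk3, Pfkp, Pfkfb2, Pfkfb3, Pgk1, Pkm and Slc16a3. Leaving out 1 array at a time, which costs a residual degree of freedom and assumes that a lone array varies like the other groups, gave 11 to 20 of the 33 genes in KO hearts (11 without KO MI 1 and 15 without KO MI 2) and 16 to 23 in WT hearts, 2246 to 4099 of all genes in KO hearts (4142 with all arrays) and 3457 to 6483 in WT hearts (5609 with all arrays). It gave 3 to 34 genes for the KO effect in sham (6 with all arrays), 2 to 11 for that in MI (14 with all arrays), 0 to 3 for the difference of the MI effects (0 with all arrays) and 3 to 10 for the averaged KO effect (20 with all arrays), and 0 to 0 of the 33 genes for both the KO effect in MI and the averaged one. The replicate numbers did not pair the arrays (correlations of same-number deviations of -0.187 to 0.156). With the replicate block, Pfkfb2 was not called for the KO effect in MI (0 of 33, adjusted p = 0.0788; 5 of all genes) or for the averaged effect (0 of 33, adjusted p = 0.101; 7 of all genes), and 22 of 33 in KO hearts and 21 of 33 in WT hearts changed after MI; with KO sham numbers crossed, KO hearts gave 23 of 33 and 4385 of all genes. With only the 2 groups compared, the KO effect gave 0 of 33 and 2 of all genes in MI (Pfkfb2 adjusted p = 0.113) and 3 of all genes in sham, and the KO calls after MI of Pfkl, Pfkfb4, Pgam2, Eno3, Ldha, Pdk2 and Pygm were lost (adjusted p = 0.0542 to 0.108). Array weights ended those of Pgam2 (0.0534), Ldha (0.0697) and Pdk2 (0.0705), and the block, as numbered or crossed, ended that of Ldha (0.0563 and 0.0531) and made the WT fall of Gys1 pass (0.0406). The averaged call of Pfkfb2 was also lost under median centring (0 of 33, adjusted p = 0.0573) and array weights (0 of 33, adjusted p = 0.0678), and the WT rise of Pdk4 under median centring (adjusted p = 0.05). Without both KO sham 1 and WT MI 2, the KO effect gave 0 of 33 and 3 of all genes in MI, and 0 of 33 and 8 of all genes when averaged. Counts over all genes also moved under an intensity trend (12 for the KO effect in sham, 63 for that in MI, 4 for the difference, 39 averaged), without the genes of lowest mean level (23 for the KO effect in MI), under array weights (26 for the same) and under cyclic loess (1 for the difference). The joint removal, the crossed block and the second Hk1 probe were chosen after seeing the data. The cause of these shifts was not tested. Over the scalings tried, the median log2 fold change of all genes stayed between -0.02 and 0.04.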

Other observations

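Among 29 measured genes that regulate glucose use, 3 rose and 12 fell after infarction in KO hearts (median log2 -0.33). In WT hearts 3 rose and 15 fell (median -0.39). Of all genes, 10.5% rose and 10.3% fell in KO hearts, and 12.3% rose and 15.8% fell in WT hearts. The rises in this list were thus near the share of all genes, while the falls were above it. In the list 0 genes were past the limma test for a KO effect in MI or for the difference. The transcription factor gene Myc had log2 levels of 9.18 and 8.86 in KO MI against 6.28 and 6.41 in KO sham, and 9.50 and 9.40 in WT MI against 5.71 and 5.88 in WT sham. It rose by 2.67 in KO hearts (adjusted p = 4.55e-06) and 3.66 in WT hearts (adjusted p = 6.08e-07). Hif1a, which encodes the oxygen-regulated subunit of HIF-1, rose by 0.53 in KO hearts (adjusted p = 0.0158) and 0.79 in WT hearts (adjusted p = 0.00132). Its relative Epas1 fell (-0.81 in both genotypes).

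Several other regulators fell in both genotypes. Ppara, a nuclear receptor that drives fatty acid oxidation, fell (log2 -0.62 in KO hearts and -1.42 in WT hearts). Ppargc1a, a coactivator of mitochondrial genes, fell (log2 -0.82 in KO hearts and -1.32 in WT hearts). Irs1, a relay of the insulin receptor, fell (log2 -1.22 in KO hearts and -1.55 in WT hearts), and Tbc1d4, which holds GLUT4 inside the cell until insulin acts, fell (log2 -0.91 in KO hearts and -1.47 in WT hearts). Mlxipl, which encodes a glucose-sensing transcription factor, fell (log2 -0.99 in KO hearts and -1.32 in WT hearts). Irs2, Insr and Akt1, further genes of insulin signalling in the same list that were named after their values were seen, passed the test in neither genotype. Irs2 differed by 0.32 in KO hearts and 0.61 in WT hearts, Insr by -0.40 in KO hearts and -0.26 in WT hearts, and Akt1 by -0.05 in KO hearts and -0.30 in WT hearts. These do not stand for the whole list. Akt2 had log2 levels of 10.47 to 10.70 in the MI arrays and 10.99 to 11.11 in the sham arrays. Foxo1 had 7.13 to 7.46 against 7.90 to 8.08, and Tbc1d1 was higher after MI, at 7.08 to 7.50 against 6.79 to 6.98. Test results for Akt2, Foxo1 and Tbc1d1 are not given here.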
